A study of Homo sapiens with 4 samples.

Results

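NORAD, listed by the authors under its older symbol LINC00657, is a long non-coding RNA of 5401 nt made from 1 exon on the minus strand of chromosome 20 (hg19, positions 34633540 to 34638940). It was chosen by the peak calls themselves: 9 of the 282 intervals in the authors' final list carry its symbol, and 10 of 719 peaks in replicate 1 and 7 of 534 peaks in replicate 2 overlap its gene body. The number, fold enrichment and reads of these peaks are therefore given as a description and were not tested. RNA crosslinked to a FLAG-tagged form of MARF1 was sequenced from HEK293-Trex cells, a human embryonic kidney cell line, by iCLIP, in which ultraviolet light fixes a protein to the RNA it touches. One group expressed F-MARF1ΔNYN, which lacks the NYN nuclease domain and was switched on by 12 hr in doxycycline at 100 ng/mL, and the control group was HEK293-Trex cells without a FLAG-tagged protein, for which doxycycline is not stated. Cells of both groups were crosslinked at 254 nm with 400 mJ per square centimetre and precipitated with a FLAG antibody, and each group had 2 libraries. Peaks were called by the authors separately for the F-MARF1ΔNYN libraries, each set against its own numbered control, and the final list holds the sequence shared by both peak lists.

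NORAD is an abundant cytoplasmic RNA of human cells that is induced by DNA damage and protects genome stability. It carries many PUMILIO elements, the short motif bound by RNA-binding proteins of the PUMILIO family, spread over a series of related repeat units, and by holding PUMILIO proteins it limits their repression of mRNAs for mitosis and DNA repair. MARF1 combines tandem LOTUS domains, which bind RNA, with a NYN domain that cuts it, and it interacts with the decapping scaffold EDC4 of processing bodies.

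The following stretches of the hg19 reference are shown because they are the elements by which NORAD is known and the places where both replicates peaked. Each is 30 nt of the minus strand, 5′ to 3′, written with T for U, and is named by its order along the transcript. Capitals mark the PUMILIO motif TGTANATA after which each of the sites P4, P7, P9, P11, P12 and P15 is named. A further motif in the stretches of P4, P9 and P12 is left in lower case. P4 lies at chr20:34637423-34637452, P7 at chr20:34636826-34636855, P9 at chr20:34636226-34636255, P11 at chr20:34635893-34635922, P12 at chr20:34635590-34635619 and P15 at chr20:34634266-34634295.
P4: ttacttatctgTGTATATAgtgtacataaa
P7: ttgttttgctcTGTATATAgtatatataat
P9: ctttgctatacTGTATATAttgtatatata
P11: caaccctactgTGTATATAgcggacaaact
P12: ttactgtgctgTGTATATAgtgtatataag
P15: attagcctattTGTAAATAcctttgttata

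In the next pair the capital marks the summit base of a replicate 1 peak, chosen because replicate 2 had its summit 1 nt away at both. The first lies at chr20:34636636-34636665 and the second at chr20:34635646-34635675, in the same exon.
summit at nt 2291: catctctaagcattaCacgtgcctgtactt
summit at nt 3281: ccagtgtgtttatgaGgaggcacattgacc

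Positions along NORAD are counted from 1 at the 5′ end of the annotated transcript. The annotation that the authors used starts the gene 58 nt further downstream. A profile search of the transcript against itself found 12 repeat units of 139 to 238 nt, from nt 736 to nt 4684. Starts of neighbouring units lay a median of 313 nt apart (range 246 to 663). Together they made up 47.3% of the transcript, and pairs of units were a median of 64.8% identical (49.0 to 82.9%, 66 pairs). The motif TGTANATA occurred 15 times on the transcribed strand and 1 time on the other strand, and all 15 sense motifs lay in a repeat unit.

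Peaks began well inside the transcript. No peak of either replicate lay in the first 895 nt, and no shared interval lay in the first 1969 nt, which is 36.5% of NORAD and holds the first 4 repeat units. From there the shared intervals ran to the 3′ end. They covered 1921 nt (35.6% of the transcript), whereas replicate 1 peaks covered 54.5% and replicate 2 peaks 39.2%. Only called peaks are listed, so that reads below the threshold in the 5′ part are not seen.

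**Figure D1:**
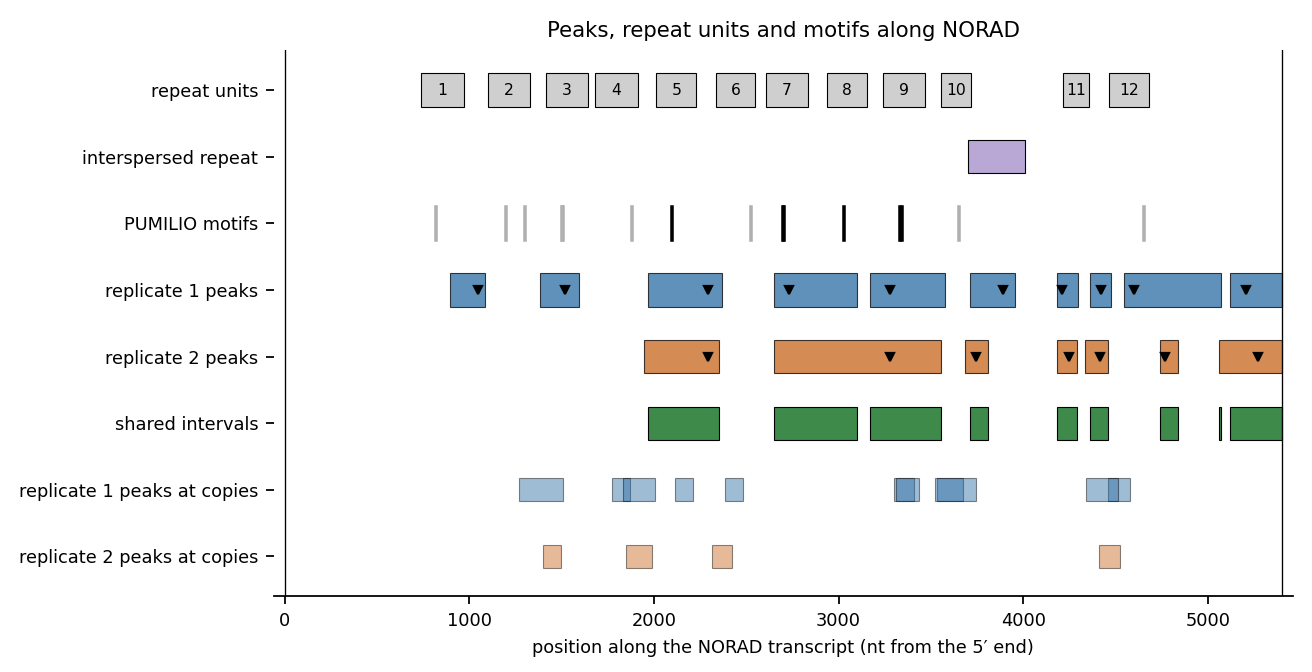
Position along NORAD in nt from the 5′ end (horizontal), with rows for the 12 numbered repeat units, the interspersed repeat, the 15 PUMILIO motifs (black inside shared intervals, grey outside), the peaks of each replicate with their summits (triangles), the 9 shared intervals, and peaks at NORAD-like copies elsewhere in the genome, placed where they align with NORAD. Shared intervals start at nt 1970, and the 2 peaks that end upstream of it were called in replicate 1 alone.

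The central repeat units held the longest shared intervals. The first interval, nt 1970 to 2354, reached from unit 5 into unit 6. The next, nt 2650 to 3102, spanned units 7 and 8. The third, nt 3170 to 3553, covered all of unit 9 and stopped at the base before unit 10. These 3 intervals of 385, 453 and 384 bp held all 6 of the PUMILIO motifs found in shared intervals.

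At the first interval replicate 1 gave a fold enrichment over the local background of 10.6 and replicate 2 of 10.2, and the summits fell at nt 2291 and nt 2292. The peak caller adds 1 to the reads and to the background, both scaled to the depth of the smaller library, before it divides them, which lowers the fold enrichment most where the background is low. This was the highest value in the lower replicate among NORAD intervals. The reads at those summits, solved for each peak from its p-value and fold enrichment, were 35 (95% Poisson interval 24.4 to 48.7) and 31 (21.1 to 44), with local backgrounds of 3 and 2 control reads per 100 bp. Library totals are unknown, so the reads of the replicates are not on a common scale and were not compared by a test.

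The third interval had its summits at nt 3281 and nt 3280, in the 5′ part of unit 9. The fold enrichments were 9.56 and 14.5, while the reads were 27 (17.8 to 39.3) and 31 (21.1 to 44). The larger fold enrichment of replicate 2 stood beside a lower background, 1.1 control reads per 100 bp against 2.4. In replicate 2 a single peak of 904 bp reached over units 7, 8 and 9, and its only listed summit is the one in unit 9. For nt 2650 to 3102 replicate 1 had a summit of its own at nt 2729, in unit 7, with 32 reads (21.9 to 45.2) over a background of 5, and a fold enrichment of 6.58.

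Downstream of unit 10 the shared intervals were shorter. The interval at nt 3714 to 3810 overlapped the end of unit 10 by 6 nt and otherwise lay in an interspersed repeat of 309 nt (nt 3704 to 4012), a stretch that matches up to 232215 places in the genome. Replicate 1 had 21 reads at nt 3889 and replicate 2 had 25 reads at nt 3745, with summits 144 nt apart. An interval at nt 4185 to 4291, which overlaps unit 11, had 29 reads in replicate 1 (19.4 to 41.6) and 32 in replicate 2 (21.9 to 45.2). Its fold enrichment was 5.98 and 10.1, again with different backgrounds, 5 and 2.1 control reads per 100 bp.

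Between units 11 and 12, at nt 4360 to 4461, the summits lay 9 nt apart with 18 and 22 reads. The remaining 3 intervals lay beyond unit 12, outside every repeat unit. The one at nt 4739 to 4841 had 17 reads in replicate 2, the fewest of any NORAD peak, within a replicate 1 peak of 529 bp that had its summit elsewhere, at nt 4601. An interval of 10 bp at nt 5063 to 5072 held the summit of neither replicate: it is the edge where that replicate 1 peak met the 3′-most peak of replicate 2.

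The last interval, of 300 bp from nt 5122, ran past the annotated 3′ end by 20 bp. There the reads were 25 (16.2 to 36.9) and 24 (15.4 to 35.7), and the fold enrichments were 9.97 and 4.76. The backgrounds were 2 and 4 control reads per 100 bp. The replicate with the higher fold enrichment was the one with the lower background here and in 7 of the 9 intervals altogether, and the one with the higher background in the other 2; the background is part of the ratio.

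**Figure D2:**
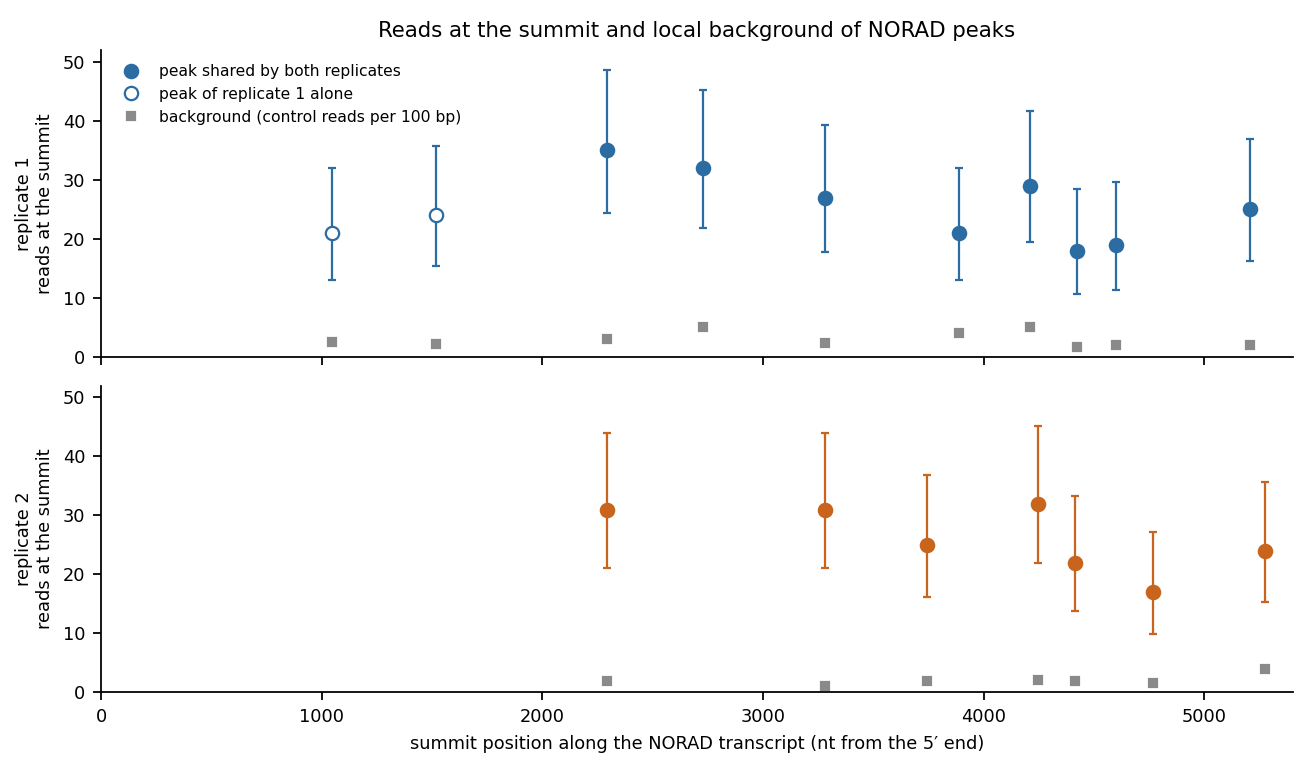
Reads at the summit (vertical, circles with 95% Poisson intervals, which cover counting error only) and local background in control reads per 100 bp (squares) for each NORAD peak by summit position in nt from the 5′ end, replicate 1 above and replicate 2 below. Reads ran from 18 to 35 in replicate 1 and from 17 to 32 in replicate 2, above backgrounds of at most 5 and 4, and open circles mark the peaks called in replicate 1 alone.

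Of the replicate 1 peaks, 8 of 10 overlapped a replicate 2 peak (95% Wilson interval 49.0 to 94.3%), as did 7 of 7 the other way (64.6 to 100%). At a reciprocal overlap of 50% the share of replicate 1 peaks fell from 80% to 50%. Over all peaks these shares were 35.9% and 46.8%, and nothing is read from the difference, because NORAD was selected on shared peaks. Summits of the replicates lay within 10 nt of each other at 3 of the 9 intervals and within 100 nt at 5, with a median of 70 nt. Over the 273 shared intervals outside NORAD the median was 49 nt, with 20.1% within 10 nt and 67.0% within 100 nt. The macs2 settings of the authors extend each read to 100 bp, so a summit is the place of most overlap and not a crosslinked base.

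The peaks found in replicate 1 alone are the most 5′ of all. One, at nt 896 to 1085, started in unit 1 and had its summit at nt 1047, just past that unit, with 21 reads (13.0 to 32.1) over a background of 2.5 and a fold enrichment of 7.31. The other, at nt 1385 to 1595, covered most of unit 3, with 24 reads (15.4 to 35.7) over 2.1 and a fold enrichment of 9.30. Its summit at nt 1517 was the base directly after a PUMILIO motif, the closest of any NORAD summit. Judged by the weakest p-value in each list, at a background of 2.1 control reads a peak needed 10 reads to be called in replicate 1 and 12 in replicate 2. Whether these peaks are absent from replicate 2 or fell below its threshold cannot be told apart from the lists.

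NORAD stood among the peaks with many reads in both groups of cells. Its peaks had a median of 24.5 reads in replicate 1 and 25 in replicate 2, beside medians of 8 and 11 for all other peaks. The median background was 2.45 and 1.9 control reads per 100 bp at NORAD and 0.36 and 0.38 elsewhere. The fold enrichments had medians of 7.85 and 8.54 at NORAD and 6.12 and 7.50 elsewhere, an order that rests on the added 1. Without it, a calculation chosen after seeing the data, the depth-scaled reads were a median of 12.5 times the background at NORAD in each replicate, and 24.9 and 28.5 times elsewhere. Control cells, which have no FLAG-tagged protein, therefore also yielded more reads near NORAD peaks than near most peaks. Peaks with few reads can be called only over low backgrounds, which raises their ratio without the added 1. The medians elsewhere include such peaks, so that they do not rank the enrichment of NORAD. NORAD peaks were far from the calling threshold: their weakest q-value was 4.20e-06, at the 3′-most peak of replicate 2, and the next weakest was 7.05e-07. No peak lay just outside the gene body, the nearest on chromosome 20 being 3852509 bp beyond the 3′ end, at PLAGL2 in replicate 1. On the 5′ side the nearest peak in either replicate was at TP53RK, at least 10674184 bp away.

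**Figure D3:**
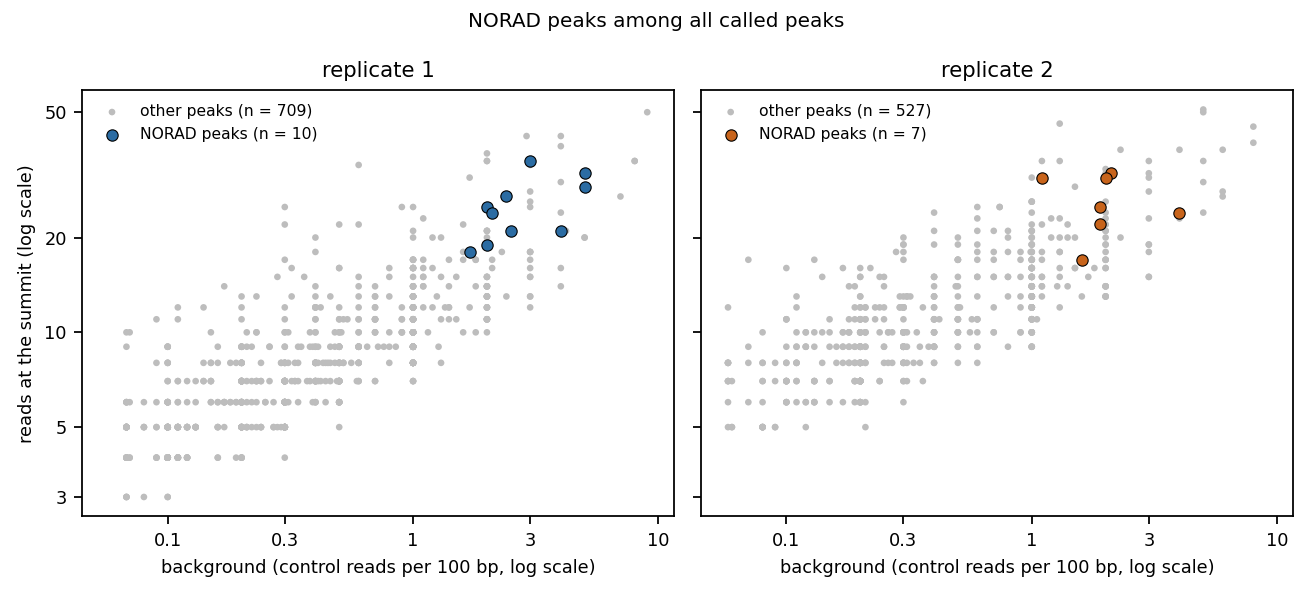
Reads at the summit against local background in control reads per 100 bp, both on log scales, for every called peak of replicate 1 (left) and replicate 2 (right), with NORAD peaks coloured. All 10 and 7 NORAD peaks have at least 17 reads and a background of at least 1.1, in the upper right of each cloud, where the medians of the other peaks are 8 and 11 reads.

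Shared intervals held PUMILIO motifs at about the share of the transcript they cover. They held 6 of the 15 motifs (40.0%) on 35.6% of the transcript, replicate 1 peaks held 9, and 6 lay in no peak. The sites P7, P9, P11 and P12 shown above are among the 6 in shared intervals, together with a second motif directly after P9 and another after P12. P4 lies in the unit 3 peak of replicate 1, and P15 in the peak of 529 bp in replicate 1, which covers unit 12 from nt 4544 on. Of windows of 100 nt centred on summits, 2 of 10 in replicate 1 and 0 of 7 in replicate 2 held the motif whole, beside 21.6% of all such windows of NORAD. Outside NORAD it was rare, in 10 of 244 summit windows of shared intervals (4.1%) in replicate 1 and 7 of 236 (2.97%) in replicate 2.

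The motif came in different kinds. TGTATATA occurred 10 times, 83 to 101 nt from the start of its unit, and gave all 6 motifs in shared intervals. TGTAAATA occurred 4 times, 189 to 201 nt into its unit, and none of these lay in a shared interval, P15 being one of them. TGTACATA occurred 1 time, directly after P4. It lay 93 nt into its unit, within the range of TGTATATA, of which 4 of 10 also lay outside shared intervals. This grouping was made after the positions were seen, and TGTAAATA and TGTATATA sit at different places in the unit, so that for this pair motif and position cannot be told apart. Place along the transcript matters too, since no shared interval lies before nt 1970. TGTAAATA at nt 1299 and 1883 and TGTATATA at nt 819, 1198 and 1500 lie in that part.

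The repeat units too were covered at about the level of the whole transcript. Of the bases in shared intervals, 46.9% lay in a unit, beside 47.3% of the whole transcript. Summits fell in a unit for 4 of 10 peaks in replicate 1 and 2 of 7 in replicate 2. Of the 9 shared intervals, 5 overlapped a unit, 1 of them by only the 6 nt at unit 10. Counted by unit, 7 of 12 overlapped a shared interval, namely units 5 to 11.

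Short motifs other than the PUMILIO element did not all give the same picture. TGTA, the start of the PUMILIO motif, occurred 51 times, 23 of them in shared intervals (45.1%), and 6 of 10 and 5 of 7 summit windows held it, beside 58.8% of all windows. The triplet GGG occurred 88 times with 22 in shared intervals (25.0%), below the share of length, yet 8 of 10 and 6 of 7 summit windows held it, beside 54.8% of all windows. In shared intervals outside NORAD, 64.8% and 62.7% of summit windows held GGG. AAATT occurred 22 times, 10 of them in shared intervals (45.5%), and 3 of 10 and 1 of 7 summit windows held it, beside 33.2% of all windows. TAAA occurred 46 times, 18 of them in shared intervals (39.1%), and 5 of 10 and 4 of 7 summit windows held it, beside 45.5%.

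Base composition varied along NORAD. The first 500 nt were 71.8% G+C, and the 4 tiles of up to 500 nt that shared intervals covered most (70.2 to 86.6% of their bases) were 31.7 to 35.2% G+C. Low G+C did not go with coverage throughout: the tile from nt 1501 had 33.4% G+C with 6.2% of its bases in shared intervals, and that from nt 4501 had 35.0% with 20.6%. Shared intervals had 37.6% G+C and the rest of NORAD 44.1%, a difference of -6.47 percentage points. Against the rest of the transcript from nt 1970 on, which had 38.0%, the difference was -0.403. Windows of 100 nt around the summits had a median of 44% in each replicate, and those of other shared intervals 45 and 44%, beside 37% for all windows of NORAD. Whole intervals were thus lower and summit windows higher in G+C than the rest, and no direction is drawn.

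The place of the summits in predicted folding depended on the windows they were set against. The minimum free energy of 100 nt windows averaged -21.6 kcal/mol at the 10 summits of replicate 1 and -23.1 at the 7 of replicate 2, beside -21.9 over all windows of the transcript and -19.6 from nt 1970 on. At the summits behind shared intervals, 8 of them in replicate 1 (mean -21.4) and all 7 in replicate 2, the energy per nt differed from that of all windows by -0.00323 kcal/mol, less than the spread between the replicates (SD 0.0124). Moving these windows by 1 nt, also chosen after seeing the data, made it -0.00809. Against windows from nt 1970 on alone, it differed by -0.0258, more than that spread. This choice leaves out the G+C-rich 5′ end and was made after seeing the data. Medians were -21.6 kcal/mol at all summits of replicate 1 and -20.3 at those of replicate 2. The windows had medians of -19.8 over the whole transcript and -19.2 from nt 1970 on.

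**Figure D4:**
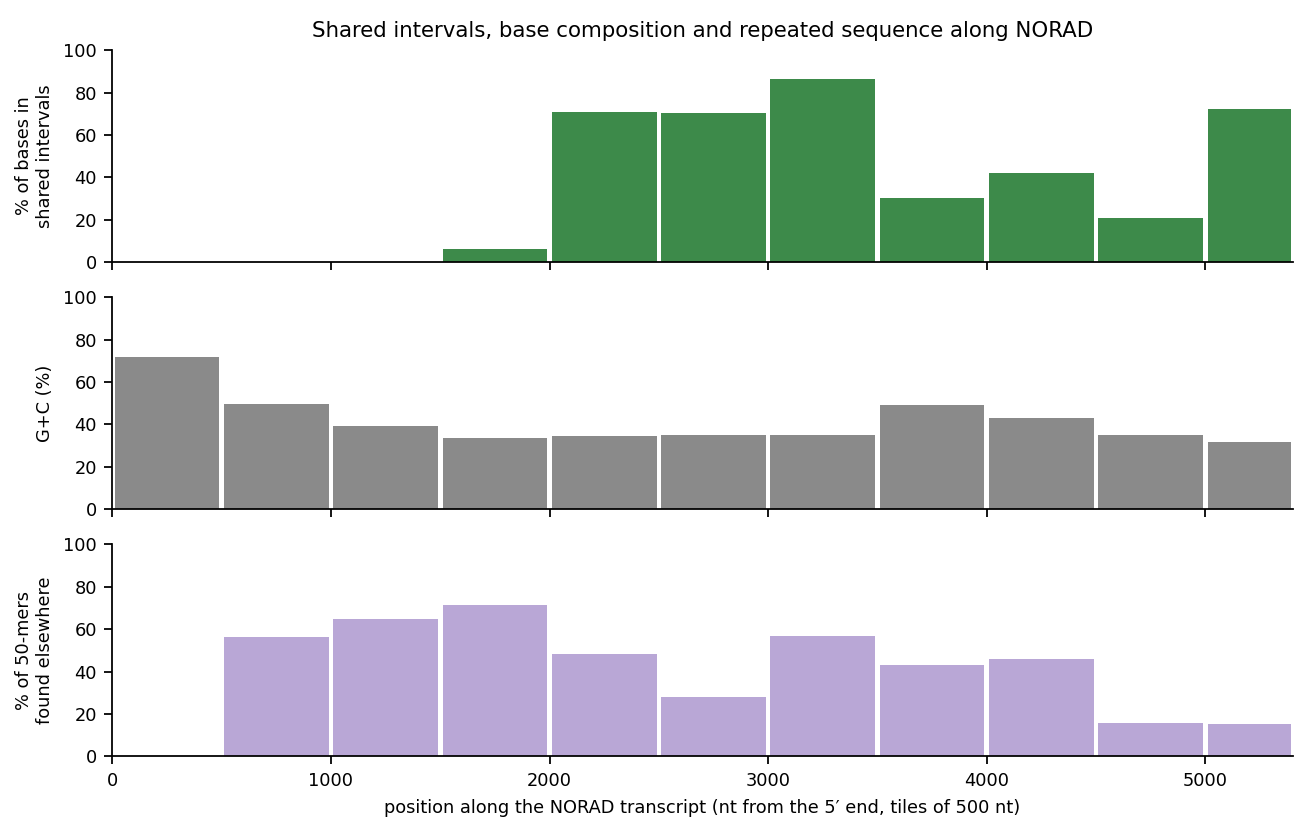
Tiles of 500 nt along NORAD from the 5′ end (horizontal; the last is 401 nt), with the percent of bases in shared intervals (top), the percent G+C (middle) and the percent of 50-nt sequences that also occur elsewhere in the genome (bottom). Shared intervals cover at most 6.2% of each of the first 4 tiles and 86.6% of the tile from nt 3001, while G+C is highest in the first tile (71.8%) and repeated sequence highest in the tile from nt 1501 (71.6%).

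Much of NORAD is not unique in the genome. Reads were up to 50 nt long before trimming, and 41.2% of the 50-nt sequences of the transcript also occur elsewhere without a mismatch. That share was 49.0% for the part before nt 1970 and 36.7% from there on. Trimmed reads are shorter and can match in more places, so that these shares are a lower limit for the reads used. Apart from the interspersed repeat, 46 other loci matched NORAD over at least 100 bp, 22 of them over 1000 bp or more, the longest over 4672 bp on chromosome 6 at 90.5% identity. The methods discard reads that map to over 10 places and all secondary alignments, which leaves each read at 1 place, while the study's text speaks of multi-mapping reads as removed. How reads common to NORAD and a copy were placed is therefore not known. Of the 50-nt sequences, 0.355% occur at over 10 places. The share of repeated sequence was highest in the interval at nt 4185 (72.4%) and 0% in that at nt 4360, whose summits lie 9 nt apart, so that no 50-nt read inside this interval has an exact match elsewhere. Peaks at a copy on chromosome 14 align with this interval all the same, as given below. The part of shared reads in the other NORAD peaks was not tested, since the lists hold no reads.

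Peaks were also called at these copies. Replicate 1 had 11 peaks at 5 of the 46 loci, on chromosomes 5, 9, 12, 14 and X, and replicate 2 had 4 peaks at 2 of them, on chromosomes 5 and 14. Aligned to NORAD, 9 of the 11 and 3 of the 4 touched a NORAD peak of the same replicate, and 5 and 0 lay in such peaks over at least 50% of their length, a limit chosen after seeing the data, where NORAD peaks cover 54.5% and 39.2% of the transcript. The copy on chromosome 12, within the antisense gene OVCH1-AS1, held 5 peaks in replicate 1 and none in replicate 2. Its highest had 25 reads and a fold enrichment of 21.0, above any NORAD peak, and 77.2% of the 50-nt sequences in it also occur in NORAD.

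The final list itself holds 3 intervals at copies, on chromosomes 5 and 14. Both on chromosome 5 carry the clone-based symbol RP11-549K20.1, named here after its values were seen, in a match that is 96.6% identical to NORAD. One of them, chr5:25189694-25189793, aligns with nt 1397 to 1497 of NORAD and had 28 reads in replicate 1 and 26 in replicate 2. This is the stretch of unit 3 where NORAD had a peak in replicate 1 alone, and 21.6% of the 50-nt sequences in the replicate 2 peak and 41.6% of those in the replicate 1 peak at the copy also occur in NORAD, a share that ran from 0 to 100% over all peaks at copies. The other, chr5:25189209-25189343, aligns with nt 1851 to 1987, reaching into the first shared interval. It had 25 and 38 reads, the latter more than any NORAD peak, with fold enrichments of 14.4 and 5.30 and backgrounds of 1 and 6 control reads per 100 bp. A further peak at this copy, chr5:25188777-25188887, was called in replicate 2 alone, with 17 reads. It aligns with nt 2312 to 2423, overlapping the first shared interval of NORAD. All of its 50-nt sequences (100%) also occur in NORAD. The interval on chromosome 14, chr14:52604295-52604399, has no symbol, lies in no annotated exon and had 14 and 16 reads. Reads that NORAD and a copy share cannot be told apart, so the absence of shared intervals from the 5′ part of NORAD holds for the gene body alone. This limit is not even along that part. In the first 500 nt, 0.4% of the 50-nt sequences occur elsewhere, beside 56.2 to 71.6% in the tiles from nt 501 to nt 2000.

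Among annotated long non-coding RNAs, NORAD had the most peaks that touch no protein-coding exon. Of the 16 intervals that the authors' annotation places in non-coding exons, 9 are in NORAD. By symbol, the annotation used here gives ZNF286B, with 1 interval (fold enrichment 7.81 and 9.14), as another long non-coding RNA of the final list, and RP4-761J14.8 as antisense, with 1 interval of 14 bp (4.44 and 5.16), while 12 of the 117 symbols were not matched to it. By position, 3 more intervals overlap an exon of a long non-coding RNA and none of a protein-coding gene, 1 in LINC02211, at the copy on chromosome 5, and 2 listed as RP11-283I3.6 on chromosome 12, which is not among the copies of NORAD. Both genes were named after their values were seen. Of 22 other long non-coding RNAs looked up, among them the abundant nuclear RNAs MALAT1 and NEAT1 and HCG11, 21 were annotated, 18 of them as long non-coding RNA and 3 as another type, and 0 had a peak in either replicate. Over all annotated long non-coding RNA genes, 0.118% had a replicate 1 peak in an exon, 0.102% a replicate 2 peak and 0.0536% a shared interval, so that 0 of 18 says nothing particular about those looked up. Expression was not measured, so that a low level of these RNAs and few reads on them cannot be told apart.

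PUMILIO proteins, which NORAD holds, repress mRNAs of mitosis and replication. Of 16 such targets looked up, 1 had a peak in each replicate and a shared interval. This was E2F3, a transcription factor of the cell cycle, with 4 peaks in replicate 1, 6 in replicate 2 and 3 shared intervals. Its highest fold enrichments were 8.96 and 10.7. Over all protein-coding genes of the annotation, 1.76% had a replicate 1 peak in an exon, 1.17% a replicate 2 peak and 0.546% a shared interval, shares at which 0 or 1 of 16 genes is no result about the list.

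In the pattern of its intervals NORAD resembled mRNAs with many peaks. Of 117 symbols it had rank 4 by number of intervals, level with IGF2BP1, and rank 7 by their summed length (1941 bp). By its highest fold enrichment it ranked 22 in replicate 1 and 12 in replicate 2, but 5 and 10 by most reads and 4 and 7 by highest background. Both the ranks by fold enrichment and the likeness given next use values with the added 1. Without it, the highest depth-scaled reads of a NORAD peak were 15.6 and 26.8 times the background, below the medians of 24.9 and 28.5 for other peaks. The limit given above for peaks with few reads applies to these medians too. Ranks of genes without the added 1 were not computed. The genes most like it over 4 values (number and length of intervals, best fold enrichment in each replicate) were IGF2BP1, an RNA-binding protein, at a distance of 0.572 SD units, then CBX6, a Polycomb protein, at 0.78 and ZNF609 at 0.937. MARF1 itself, listed as KIAA0430, followed at 1.20, and C16orf45, whose intervals partly overlap exons of MARF1, at 1.22. IGF2BP1 also had 9 intervals, and its highest peaks had 23 and 33 reads, beside 35 and 32 for NORAD.

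No annotated gene overlaps NORAD on either strand, so its peaks, which carry no strand, have no other annotated source at the locus. The nearest gene on the 5′ side, a long non-coding RNA on the plus strand, lies 472 bp away, and CNBD2 lies 14917 bp beyond the 3′ end.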

How the data were processed

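The authors aligned reads to hg19 with STAR 2.3.0e, discarded those mapping to over 10 places, secondary alignments and duplicates, and called peaks with macs2 2.1.1 at an FDR of 0.05 for each replicate against its control. Deposited for each peak are a score, its fold enrichment at the summit (the ratio of reads plus 1 to local background plus 1), and −log10 values of p and q, all from the authors' peak caller. There are no counts per library, and per-sample columns left unused number 0. Here reads at the summit were solved from fold enrichment and p-value, which gave a whole number within 0.001 of the listed −log10 p for all 719 and 534 peaks, and this was tested on simulated data. In replicate 2 a read counted as 0.95065, a weight searched on the same peaks as the one that solved most of them. The full share solved there is therefore not an independent check. Backgrounds are in control reads per 100 bp, the largest of the local windows. An overlap of 1 bp (bedtools 2.31.1) made an interval shared. Repeat units came from nhmmer 3.4 (E-value 0.001, seed of 300 nt), copies from blastn 2.17.0, folding from RNAfold 2.7.2 and genes from GENCODE release 44. Named genes are NORAD, its neighbours, non-coding genes of the list, the 5 most alike and 3 gene lists. Members and lists were chosen with earlier results of these data known. No test was run, because the design allows none on values that chose NORAD. The results of 1 gene list are not reported here.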

Additional observations from a re-analysis of the deposited data

How the results depend on the processing

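Stricter q-values, a fold enrichment of at least 4 and the authors' symbol in place of the gene body left the number of shared intervals at 9. A reciprocal overlap of 50% left 5 intervals, 24.6% of the transcript, 3 intervals in repeat units, 4 motifs, 50% of replicate 1 peaks shared and a G+C difference of -8.4 percentage points. With replicate 1 or replicate 2 left out, the peaks of the other alone numbered 7 to 10, covered 39.2 to 54.5% of NORAD, had a highest fold enrichment of 10.6 to 14.5, held 6 to 9 PUMILIO motifs, overlapped a unit 5 to 9 times, and differed in G+C by -8.12 to -7.09 points and in folding energy by -0.0126 to 0.00497 kcal/mol per nt. Windows of 100 nt around the 8 summits of replicate 1 behind shared intervals covered 14.8% of the transcript. Windows around the summits of each replicate turned the G+C difference to 1.67 points. TGTA alone gave 23 motifs, and 100% of replicate 2 peaks overlapped a replicate 1 peak. Chosen after seeing the data, the transcript from nt 1970 on was covered to 56%, with a G+C difference of -0.403 and a folding difference of -0.0258, and intervals at copies brought the number to 12. The causes were not tested. No paired analysis was possible because the lists already compare each library with its numbered control and hold no value per library. Depth limits what is called: library totals are unknown, there are 2 replicates, and summits rest on 17 to 35 reads.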

Other observations

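Peaks that touch an annotated long non-coding RNA and no protein-coding exon were found for 8 such genes in replicate 1 and 5 in replicate 2. NORAD had 10 and 7 of them. OVCH1-AS1 followed with 5 in replicate 1, and LINC02211 had 1 and 2, both at copies of NORAD described above. Not at such copies, a pair of overlapping genes without a symbol, listed as RP11-283I3.6, had 3 and 2 peaks, with highest fold enrichments of 8.62 and 8.68. On chromosome X, 2 further peaks of replicate 1, with 8 and 6 reads, lie in an annotated long non-coding RNA that also matches NORAD, at 93.8% identity. These genes were named after their values were seen.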
